A study of Mus musculus with 6 samples.

Results

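Major histocompatibility complex (MHC) class II molecules are pairs of an alpha and a beta chain that carry peptides from the endosomal pathway to the cell surface, where CD4+ T cells read them. They are made mainly by B cells, dendritic cells and macrophages, whereas mouse T cells are not usually counted among the cells that transcribe these genes at a high level. The new chains are held by the invariant chain (Cd74), whose last fragment, CLIP, is exchanged for peptide with the help of the chaperone H2-DM, and H2-DO restrains H2-DM. Transcription needs the coactivator Ciita, which docks on a set of proteins bound to short promoter boxes called X and Y.

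The 10 genes described here are those of this machinery in the mouse: the chain genes H2-Aa, H2-Ab1 and H2-Eb1, the invariant chain Cd74, the H2-DM genes H2-DMa, H2-DMb1 and H2-DMb2, the H2-DO genes H2-Oa and H2-Ob, and Ciita. They were chosen by name out of 49315 genes in the count table, with their difference between skin and lymph node already seen in these same libraries. Their levels are therefore a description, and no p-value is given for them.

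RNA was sequenced in bulk from regulatory T cells (Tregs), a suppressive CD4+ lineage defined by the transcription factor Foxp3, sorted from skin and from skin-draining lymph nodes (SDLNs) of Foxp3-GFP mice on a C57BL/6J background at postnatal day 9. In these reporter mice green fluorescent protein marks cells that express Foxp3. Live CD45+ CD4+ Foxp3-EGFP+ cells were sorted from skin digested with enzymes and from lymph nodes, and each sample pooled 3 biological replicates. There are 3 skin Treg and 3 SDLN Treg libraries, named here by tissue and the letters A to C. Where 3 values are given for a tissue they stand in that order. The p-values given for other genes measure only the spread between these samples. Nothing links a letter to a numbered sample or pairs the tissues.

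Total counts were 3748669 to 11741784 in skin Tregs and 47243498 to 116158706 in SDLN Tregs, and 2911 to 5317 genes reached 1 CPM (counts-per-million, relative to the library total) in skin Tregs against 12397 to 13002 in SDLN Tregs. Of 13572 genes tested, 43.3% lay at 3 counts or fewer, called the floor here, in every skin library, and 69.3% did so in at least 2 of them. The sort markers were uneven in skin Tregs. Foxp3 had 0, 330 and 1 counts and Cd4 had 0, 1861 and 2 counts in the skin libraries, so both were absent or nearly so in A and C. Of the other T cell and Treg markers, Cd3e also had 0 counts in skin Tregs A, and the rest had 412 counts or more in every skin library. Some values below are also given for skin Tregs B alone, an alternative chosen after seeing the data. In that fit 1 skin library stands against 3, so the SDLN libraries alone supply the spread and skin variation is not estimated.

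Class II transcripts made up 5.55%, 3.35% and 3.10% of all counts in the skin libraries. They made up 0.0562%, 0.0436% and 0.0830% of all counts in the SDLN libraries. Summed over the 10 genes this was 40014 ± 13480 CPM in skin Tregs and 609.6 ± 201 CPM in SDLN Tregs (SD, n = 3 each), a 65.6-fold difference of means, and no skin library came near an SDLN library. The difference was not shared by all members. H2-Aa, H2-Ab1, H2-Eb1, Cd74, H2-DMa and H2-DMb1 were higher in every skin library, H2-Ob was not counted in any of them, and H2-DMb2, H2-Oa and Ciita were high in 1 skin library and low or absent in the others.

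In the edgeR fit over all genes, with an adjusted p under 0.05 as the call, 6 of the 10 members were called higher in skin Tregs, 1 (H2-Ob) was called higher in SDLN Tregs and 3 were not called. Of all genes tested, 1.04% were called higher in skin Tregs and 45.3% higher in SDLN Tregs. The median log2 fold change, skin over SDLN, was 5.0 for the members and -2.21 for all genes tested. Fitted values of genes at the floor in skin Tregs enter the median over all genes. It was -1.29 with genes at the floor set at their bound (5.0 for the members), and -6.10, -7.41 and -7.20 without skin Tregs A, B or C, so it is no fixed reference. Skin libraries lay above SDLN libraries without overlap for 6 members and 2.39% of all genes tested, and below them without overlap for 1 member and 53.6% of all. These counts restate the choice of members and are not evidence for it. All 10 members passed the filter on low counts, but H2-Ob did so through SDLN Tregs alone and H2-Oa and Ciita through SDLN Tregs and 1 skin library.

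Of the members, 8 lie in the class II region of chromosome 17, within 224335 bases (GRCm38, GENCODE M21). In order along the chromosome they are H2-Oa (chr17:34092340-34095234), H2-DMa (chr17:34119541-34139101), H2-DMb2 (chr17:34143307-34151555), H2-DMb1 (chr17:34153072-34160230), H2-Ob (chr17:34238903-34254414), H2-Ab1 (chr17:34257689-34269419), H2-Aa (chr17:34282744-34287823) and H2-Eb1 (chr17:34305867-34316674). H2-Aa is on the minus strand and the other 7 are on the plus strand. Ciita is on chromosome 16 (chr16:10480059-10528418) and Cd74 is on chromosome 18.

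Class II promoters are known for an X box, bound by the RFX complex and CREB, followed by a Y box, bound by NF-Y, and the promoters of the members were read to see how far they share these letters. RefSeq promoter windows (GRCm38.p6, 250 bases before to 50 after each start) matched 7 of the 10 members, with 8 windows because H2-DMa has a pair of them. H2-Ab1, Cd74 and Ciita were not matched. On either strand, the Y box letters GATTGG were in 7 of the 8 windows, at least 1 for each of the 7 genes, and in 16.1% of all 32817 windows. The shorter Y core ATTGG, which lies within GATTGG, was in 37.4% of all windows. An X core, searched as AG, any 2 bases, AC, any 3 bases and TG, was in 4 of the 8 windows and in 14.8% of all windows. The longer X form CCTAGNAAC, whose last letters overlap the X core, was in 2 of the 8 windows and in 1.52% of all. An X core followed after 15 to 35 bases by a Y core was in 3 member windows, those of H2-Eb1, H2-DMb1 and H2-Ob, and in 0.293% of all windows. A match is a run of letters and not evidence of binding, and a missing match is not evidence that a box is absent.

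The 150 bases before the start of 5 members are shown, from genes that were high, absent or uneven in skin Tregs. By the searched letters they hold the pair or only its Y core, and an X box spelled otherwise would not be marked. Capitals mark the X core and the Y core ATTGG on the strand of the gene. H2-Eb1 holds a second Y core on the opposite strand, which is left in lower case. The stretches are H2-Eb1 at chr17:34305717-34305866, H2-DMb1 at chr17:34153041-34153190, H2-DMb2 at chr17:34145099-34145248, H2-Ob at chr17:34238755-34238904, all on the plus strand, and H2-Aa at chr17:34287824-34287973 on the minus strand.
H2-Eb1: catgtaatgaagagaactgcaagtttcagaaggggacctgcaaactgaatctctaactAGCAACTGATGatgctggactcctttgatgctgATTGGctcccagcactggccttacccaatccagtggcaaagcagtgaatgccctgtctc
H2-DMb1: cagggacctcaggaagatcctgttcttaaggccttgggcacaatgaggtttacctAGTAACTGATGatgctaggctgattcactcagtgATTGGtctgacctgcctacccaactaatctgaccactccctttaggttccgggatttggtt
H2-DMb2: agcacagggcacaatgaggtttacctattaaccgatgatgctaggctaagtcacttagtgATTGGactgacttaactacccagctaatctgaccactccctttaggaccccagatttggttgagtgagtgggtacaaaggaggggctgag
H2-Ob: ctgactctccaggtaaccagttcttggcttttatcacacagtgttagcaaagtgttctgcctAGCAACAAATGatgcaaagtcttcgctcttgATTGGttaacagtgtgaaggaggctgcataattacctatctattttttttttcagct
H2-Aa: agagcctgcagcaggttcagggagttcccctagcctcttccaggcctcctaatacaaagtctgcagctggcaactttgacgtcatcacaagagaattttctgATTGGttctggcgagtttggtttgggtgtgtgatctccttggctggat

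The X core began 92 bases before the start in H2-Eb1, 95 in H2-DMb1 and 88 in H2-Ob, with 22, 23 and 20 bases between it and the Y core. H2-DMb1 and H2-DMb2 are neighbouring copies of 1 gene, and from the first base of the X core to the last base of the Y core 34 of 39 bases were identical. In the X core H2-DMb2 differed by G2T and T7C, with the H2-DMb1 base first and positions counted from 1 at the first base of the 11-base H2-DMb1 core, and G2T alone broke the searched letters, since position 7 allows any base. H2-Ob, which was at 0 in every skin library, carried the full pair, and so did H2-Eb1, which was among the highest genes.

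H2-Aa and H2-Ab1 encode the alpha and the beta chain of I-A. H2-Aa stood at 9816, 3880 and 3166 CPM in the skin libraries (36796, 45555 and 28598 counts), against 27.2, 18.5 and 24.8 CPM in the SDLN libraries. The means were 5620 ± 3651 and 23.5 ± 4.46 CPM (SD, n = 3), and the fitted log2 fold change was 7.71 (SE 0.43). Every skin library was far above every SDLN library, and skin Tregs A stood highest. H2-Ab1 stood at 13484, 8801 and 7324 CPM in the skin libraries and at 56.4, 31.2 and 82.7 CPM in the SDLN libraries, a log2 fold change of 7.32 (SE 0.52). The groups were again fully apart, with skin Tregs A highest.

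H2-Eb1 encodes the beta chain of I-E, the second class II molecule, whose alpha chain gene is known to be defective in C57BL/6 mice. H2-Eb1 stood at 4067, 2075 and 1383 CPM in the skin libraries. In the SDLN libraries it stood at 17.8, 11.9 and 6.94 CPM, and the log2 fold change was 7.53 (SE 0.55). The lowest skin value was well above the highest SDLN value. The alpha chain gene, listed as the pseudogene H2-Ea-ps, had 0 counts in all 6 libraries, as did H2-Pb. H2-Eb2, another beta chain gene, had 0 counts in skin Tregs and at most 42 in an SDLN library.

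Cd74, the invariant chain that fills the peptide groove and guides the chains to the endosome, stood at 26833, 17637 and 18402 CPM in the skin libraries. It stood at 372, 296 and 599 CPM in the SDLN libraries. The means were 20958 ± 5103 and 422 ± 158 CPM (SD, n = 3), and the log2 fold change was 5.55 (SE 0.39). Of the 10 genes Cd74 had the highest level per kilobase of exon in every library of either tissue, and its groups did not overlap.

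**Figure D1:**
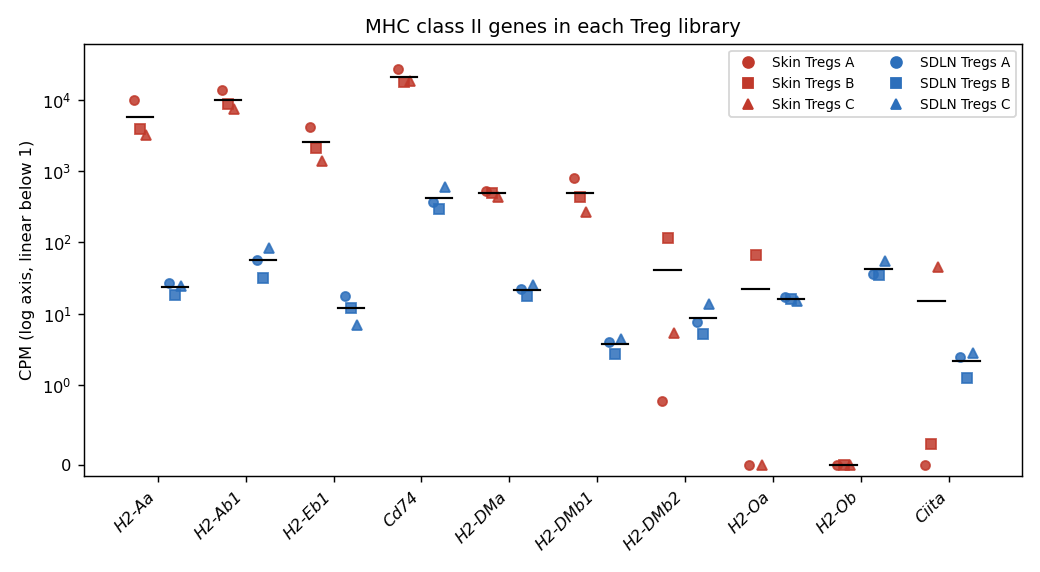
CPM of the 10 class II genes in each library on a log axis that is linear below 1, with skin Tregs in red, SDLN Tregs in blue, a marker shape for each letter and a bar at the mean of 3 libraries. H2-Aa, H2-Ab1, H2-Eb1, Cd74, H2-DMa and H2-DMb1 lie apart between the tissues with skin Tregs above, H2-Ob lies at 0 in skin Tregs, and H2-DMb2, H2-Oa and Ciita are each high in 1 skin library.

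H2-DMa encodes the alpha chain of H2-DM, the chaperone that removes CLIP. It stood at 528, 492 and 436 CPM in the skin libraries and at 22.0, 17.7 and 25.3 CPM in the SDLN libraries, a log2 fold change of 4.44 (SE 0.68). Among the 6 genes that were higher in every skin library it had the smallest fold difference, 22.4-fold between means, and the narrowest spread between skin libraries, with an SD of 46.4 CPM around 485 CPM. Of its exon bases, 10.4% overlap Brd2 on the other strand, and the strand setting of the counting is not given in the sources used here, so that reads from there cannot be told apart. Brd2 had 2806, 9030 and 0 counts in the skin libraries, where H2-DMa had 1979, 5781 and 3938.

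The beta chain of H2-DM comes from a pair of copies, H2-DMb1 and H2-DMb2, and the copies did not move alike. H2-DMb1 stood at 784, 432 and 267 CPM in the skin libraries and at 4.01, 2.76 and 4.47 CPM in the SDLN libraries, a log2 fold change of 6.87 (SE 0.84). H2-DMb2 stood at 0.800, 115 and 5.42 CPM in the skin libraries (3, 1354 and 49 counts) and at 7.73, 5.23 and 13.5 CPM in the SDLN libraries. The groups were far apart for H2-DMb1 and overlapped for H2-DMb2, which was high in skin Tregs B alone. Per exon base, H2-DMb1 exceeded H2-DMb2 1018-fold, 3.90-fold and 51.1-fold in the skin libraries, whereas in the SDLN libraries the ratio was 0.539, 0.548 and 0.343, so H2-DMb2 was the higher copy in every SDLN library. The value for skin Tregs A rests on 3 counts of H2-DMb2 and has an exact 95% counting interval of 348 to 4942. Of the 100-base stretches of each transcript, 13.7% for H2-DMb1 and 13.5% for H2-DMb2 occur in the other copy. Only uniquely assigned reads were counted, so reads that match both copies alike were left out. These shares do not measure the uncertainty of the ratio, and their bearing on the split between the copies was not tested.

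H2-DO, the partner that restrains H2-DM, is known mainly from B cells. Its alpha chain gene H2-Oa had 0, 778 and 0 counts in the skin libraries (0, 66.3 and 0 CPM), against 17.03, 16.2 and 15.1 CPM in the SDLN libraries. Skin Tregs B lay above all SDLN libraries and the other two skin libraries lay below them, so the groups overlapped. Of its exon bases, 22.8% overlap the gene BC051537. Its beta chain gene H2-Ob had 0 counts in all 3 skin libraries. In the SDLN libraries H2-Ob had 4146, 2581 and 2615 counts, or 35.7, 35.5 and 55.4 CPM, so H2-Ob was at least 91.1-fold higher in SDLN Tregs when each skin library is set at its floor of 3 counts (0.463 CPM on average). A count of 0 allows up to 0.800, 0.255 and 0.332 CPM in the skin libraries, counting error only. H2-Ob was thus the 1 member with the opposite order, and it shares this state in skin with the 43.3% of tested genes at the floor throughout the skin libraries.

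Ciita, the coactivator on which class II transcription depends, had 0, 3 and 410 counts in the skin libraries (0, 0.255 and 45.4 CPM). In the SDLN libraries it had 285, 93 and 135 counts (2.45, 1.28 and 2.86 CPM). It was high in skin Tregs C and at the floor in A and B, where the chain genes were higher than in C. Its exons overlap those of Dexi over 3.45% of their bases.

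For the 3 members whose groups overlapped, the direction rested on 1 library. Without skin Tregs B the log2 fold change of H2-DMb2 went from 2.23 to -1.28 and that of H2-Oa from 0.52 to -12.66, and with H2-Oa at 0 counts in both remaining skin libraries the latter is no bound, while H2-Oa was then called higher in SDLN Tregs. Without skin Tregs C the log2 fold change of Ciita went from 3.10 to -3.83 and it was then called higher in SDLN Tregs. Its remaining skin libraries held 0 and 3 counts, at the floor. H2-Oa and Ciita thus entered these fits through SDLN Tregs, where they were higher, so their calls are not read as a direction. Of all genes tested, 7787 of 15927 were called higher in SDLN Tregs without skin Tregs B, and 7392 of 15913 without skin Tregs C. With skin Tregs B alone the values were 3.73 for H2-DMb2, 2.09 for H2-Oa and -3.07 for Ciita, and since 1 skin library gives no skin spread, nothing is read from their calls.

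The order of the genes per kilobase of exon differed between the tissues. In skin Tregs the mean levels were 12480 ± 3039 CPM per kilobase for Cd74, 3843 ± 1252 for H2-Ab1, 1480 ± 961 for H2-Aa and 1290 ± 717 for H2-Eb1. H2-Aa and H2-Eb1 overlapped between libraries, and the gaps from Cd74 to H2-Ab1 and from H2-Ab1 to H2-Aa were free of overlap. H2-DMb1 (294 ± 157) and H2-DMa (141 ± 13.5) followed, and the remaining 4 genes averaged 23.2 CPM per kilobase or less. In SDLN Tregs Cd74 (252 ± 93.9 CPM per kilobase) and H2-Ab1 (22.1 ± 10.02) were again first and second, but the H2-DO genes H2-Oa (11.4 ± 0.689) and H2-Ob (7.84 ± 2.12) came next, ahead of H2-Aa (6.18 ± 1.18) and H2-DMb1 (2.23 ± 0.525). Neighbouring genes from the fourth to the eighth place in SDLN Tregs overlapped between libraries. With the length of the principal transcript in place of all exons, a setting chosen after seeing the data, H2-Aa moved from the 7th to the 3rd place in SDLN Tregs, and its place in skin Tregs was the same.

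Within a library, ratios between genes do not depend on the total count. Cd74 made up 60.2%, 63.5% and 70.0% of the summed class II CPM per kilobase in the skin libraries, while SDLN Tregs had 75.9%, 77.5% and 81.4%. The 3 chain genes together made up 33.0% ± 4.68 in skin Tregs and 10.97% ± 1.86 in SDLN Tregs (SD, n = 3). H2-Oa and H2-Ob together made up 0.0950% ± 0.164 in skin Tregs and 6.39% ± 1.57 in SDLN Tregs. The make-up thus held more chain transcript and less H2-DO transcript in each skin library than in any SDLN library.

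**Figure D2:**
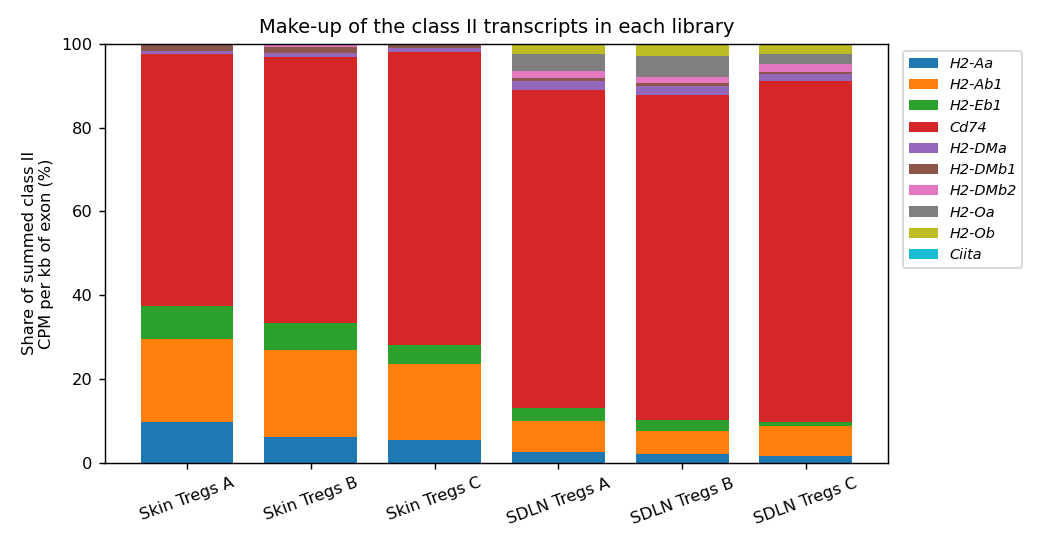
Share of each gene in the summed class II CPM per kilobase of exon, in percent, 1 bar for each library. Cd74 takes 60.2% to 70.0% of the bar in skin Tregs and 75.9% to 81.4% in SDLN Tregs, and the H2-Oa and H2-Ob segments at the top of the SDLN bars are missing from skin Tregs A and C.

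Per exon base, H2-Ab1 was 2.03, 3.36 and 3.42 times H2-Aa in the skin libraries, while SDLN Tregs had 3.07, 2.49 and 4.94 times, and the groups overlapped. With the principal transcript the means were 1.85 in skin Tregs and 2.20 in SDLN Tregs, from 2.94 and 3.50 with all exons, and the difference was not tested. The ratio of H2-Eb1 to H2-Ab1 also overlapped, at 0.320 ± 0.0748 and 0.344 ± 0.206 (SD, n = 3). By contrast, the ratio of Cd74 to the 3 chain genes was 1.61, 1.90 and 2.49 in the skin libraries, while SDLN Tregs had 5.79, 7.62 and 8.44, with no overlap. The ratio of Cd74 to the chain genes depends on the length used: with the principal transcript the means were 1.08 in skin Tregs and 4.005 in SDLN Tregs, from 2.00 and 7.28 with all exons, and with undivided counts they were 1.24 and 4.57.

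The H2-DM and H2-DO genes also stood in other proportions. H2-DMa and H2-DMb1 together were 0.0791, 0.0899 and 0.0773 of H2-Aa and H2-Ab1 in the skin libraries, while SDLN Tregs had 0.301, 0.399 and 0.258. The ratio of H2-DO to H2-DM genes was 0, 0.101 and 0 in the skin libraries, while SDLN Tregs had 1.42, 1.85 and 1.18. Neither set of values overlapped between tissues. The first ratio averaged 0.0821 in skin Tregs with all exons and 0.0506 with the principal transcript, and 0.319 and 0.244 in SDLN Tregs. Relative to the chains, the helper transcripts were thus scarcer in skin Tregs although H2-DMa and H2-DMb1 were higher there in CPM.

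**Figure D3:**
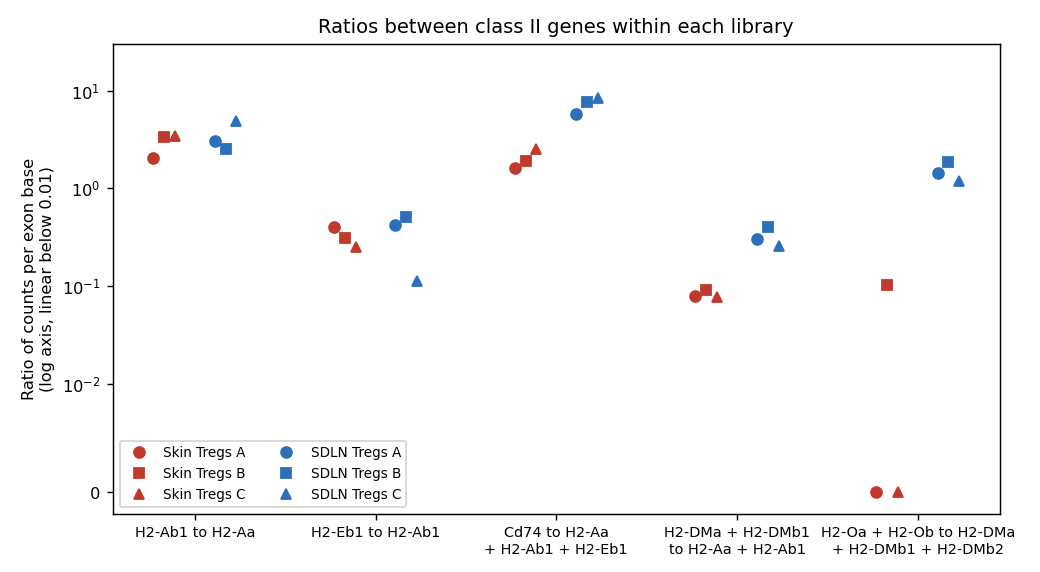
Ratios between class II genes within each library, from counts divided by exon length, on a log axis that is linear below 0.01 (skin Tregs red, SDLN Tregs blue, a marker shape for each letter). The ratios of H2-Ab1 to H2-Aa and of H2-Eb1 to H2-Ab1 overlap between tissues, and the other 3 lie lower in every skin library.

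The genes that lie between the members on chromosome 17 were read in the same fit to see whether the whole region was higher in skin Tregs. Of 9 other annotated genes there, 6 could be tested, 0 were called higher in skin Tregs by edgeR (0 also at an unadjusted p under 0.05 and by DESeq2 and limma voom) and 1 was called higher in SDLN Tregs (2 at an unadjusted p under 0.05, 3 by DESeq2 and 3 by limma voom), beside 1.04% and 45.3% over all genes, so that with 6 genes the count of 0 is not a result about the region. Psmb8, an immunoproteasome subunit of the class I pathway, stood at 510, 405 and 179 CPM in the skin libraries and at 821, 662 and 949 CPM in the SDLN libraries, with a log2 fold change of -1.29 (SE 0.44, adjusted p = 0.0576). Tap1, a subunit of the class I peptide transporter, stood at 0, 131 and 0.111 CPM in the skin libraries against 277 to 328 CPM in SDLN Tregs (adjusted p = 0.580). Psmb9 and Tap2 were not called either (adjusted p = 0.631 and 0.859). Brd2, a bromodomain protein, stood at 749, 769 and 0 CPM in the skin libraries and at 186, 240 and 169 CPM in the SDLN libraries, the other way round in A and B, and was not called (adjusted p = 0.834). The gene called higher in SDLN Tregs was Gm20496, an antisense gene that overlaps Psmb8 and Tap2 and was below 1 CPM in every library.

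**Figure D4:**
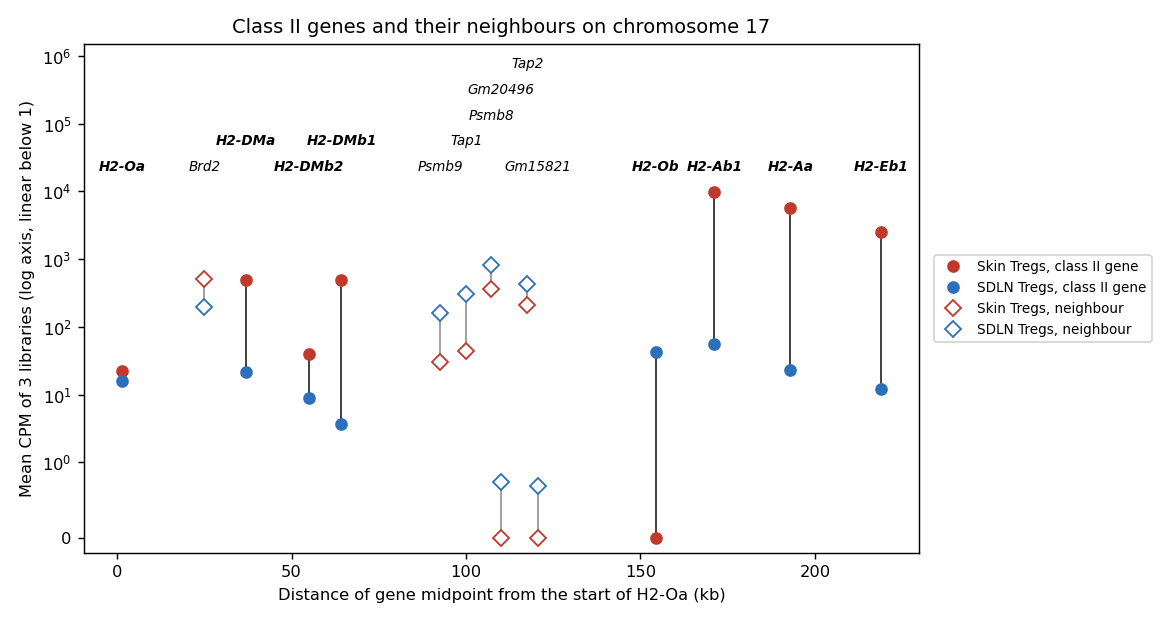
Mean CPM of 3 libraries (log axis, linear below 1) for the class II members (filled circles) and the other counted genes between them (open diamonds), against distance from the start of H2-Oa in kilobases, skin Tregs in red and SDLN Tregs in blue. H2-DMa, H2-DMb1, H2-Ab1, H2-Aa and H2-Eb1 have skin above SDLN by 22.4-fold or more, whereas Psmb9, Tap1, Psmb8 and Tap2 have SDLN above skin and Brd2 has skin above SDLN (means 506 and 198 CPM).

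The enzymes and helpers that prepare antigen for class II form a list of 14 genes, of which 13 were tested. Of these, 6 were called higher in skin Tregs, 0 were called higher in SDLN Tregs (0 also at an unadjusted p under 0.05 and by DESeq2 and limma voom) and 7 were not called, beside the 1.04% and 45.3% over all genes, and the median log2 fold change was 1.80. Ctss, cathepsin S, which cuts the invariant chain, stood at 1052, 702 and 770 CPM in the skin libraries and at 248, 269 and 218 CPM in the SDLN libraries (log2 difference of 1.73 with SE 0.38, adjusted p = 0.0111). Ctsh, an endosomal aminopeptidase, stood at 594, 230 and 252 CPM in skin Tregs and at 6.71, 5.58 and 3.70 CPM in SDLN Tregs (5.93, SE 0.95, adjusted p = 0.00416). Neither gene overlapped between the tissues.

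Ifi30, the thiol reductase that opens disulphide bonds of antigens, was 210 ± 85.6 CPM in skin Tregs and 14.2 ± 1.96 CPM in SDLN Tregs (adjusted p = 0.0293). Ctsc, a dipeptidyl peptidase, was 1442 ± 561 and 211 ± 12.7 CPM (adjusted p = 0.00326) and Ctsb, cathepsin B, 1787 ± 614 and 662 ± 44.3 CPM (adjusted p = 0.00939). Cst3, the cathepsin inhibitor cystatin C, was 735 ± 594 and 133 ± 47.9 CPM (adjusted p = 0.0313). The 6 called genes thus held proteases and a protease inhibitor alike. Lgmn, the asparagine endopeptidase, was 449 ± 180 and 133 ± 24.1 CPM and was not called (adjusted p = 0.0811).

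March1, a ubiquitin ligase that draws class II from the surface, had 1802, 0 and 3296 counts in the skin libraries and was not called (adjusted p = 0.0830). Sppl2a, which cuts the last fragment of the invariant chain, had 3042, 4 and 3 counts (adjusted p = 0.849). These were high in some skin libraries only. The count of 6 was 3 without SDLN Tregs A, 1 with upper-quartile scaling, 2 with no filter and 3 when every library had to hold 10 counts or more. The call of Ctss was lost without SDLN Tregs A, that of Ifi30 without any 1 SDLN library, and that of Cst3 also without skin Tregs B.

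**Figure D5:**
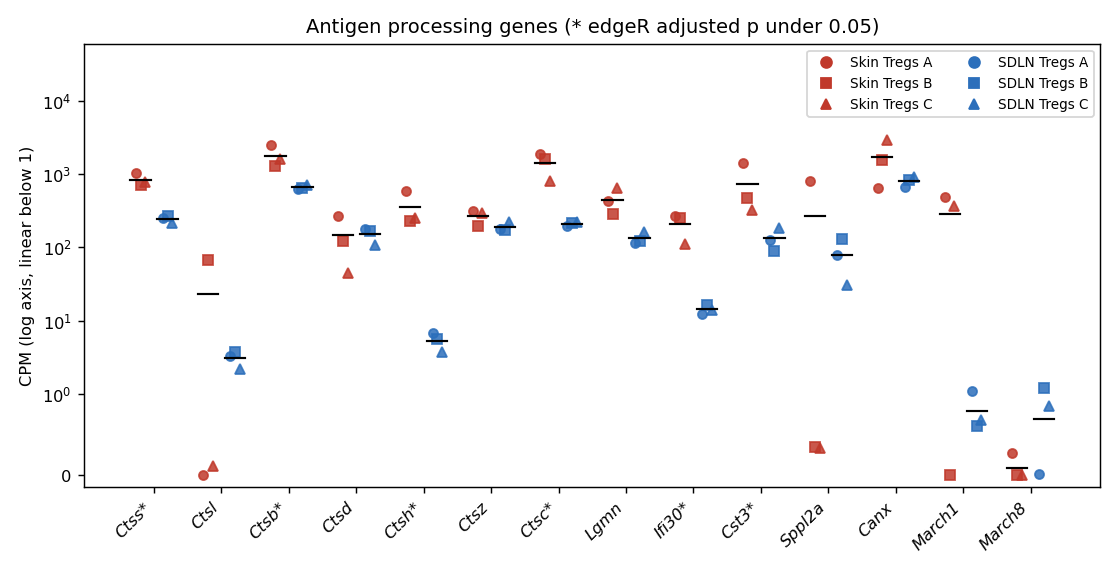
CPM of the 14 antigen processing genes in each library on a log axis that is linear below 1, with skin Tregs in red, SDLN Tregs in blue, a bar at the mean of 3 libraries and an asterisk for an adjusted p under 0.05. Ctss, Ctsb, Ctsh, Ctsc, Ifi30 and Cst3 carry the asterisk with every skin library above every SDLN library, whereas Sppl2a and March1 are at or near 0 in at least 1 skin library.

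The regulators of class II transcription form a list of 21 genes, all tested. Of these, 1 was called higher in skin Tregs and 6 were called higher in SDLN Tregs (10 with limma voom), beside 1.04% and 45.3% over all genes, so that 6 of 21 was not above the background. The median log2 fold change was -1.16, beside -2.21 over all genes tested, and with genes at the floor set at their bound the medians were -1.16 and -1.29. The 3 subunits of the RFX complex, which binds the X box, were near or at 0 in skin Tregs, as were the 43.3% of tested genes at the floor in every skin library. Rfx5 and Rfxank had 0 counts in all skin libraries against means of 23.0 ± 8.63 and 44.5 ± 2.54 CPM in SDLN Tregs, at least 49.7-fold and 96.2-fold higher there (adjusted p = 0.00374 and 0.00469). Rfxap had 0, 0 and 1 counts in the skin libraries and 3.11 ± 1.45 CPM in SDLN Tregs (adjusted p = 0.00608).

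The other regulators called higher in SDLN Tregs were Ep300 and Kat2b, a pair of acetyltransferases (adjusted p = 0.00761 and 0.0145), and Nlrc5, the coactivator of class I genes (adjusted p = 0.0121). Spi1, the myeloid and B cell factor PU.1, was the 1 regulator called higher in skin Tregs, at 399, 271 and 14.1 CPM in the skin libraries, where SDLN Tregs had 3.49, 1.61 and 1.19 CPM (log2 fold change 6.52, SE 1.74, adjusted p = 0.0232). The calls of Spi1 and Nlrc5 were each lost without any 1 SDLN library. The NF-Y genes Nfya, Nfyb and Nfyc, whose product binds the Y box, were not called (adjusted p = 0.369, 0.965 and 0.780). The count of 6 was 10 without skin Tregs A.

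Genes for the partners of class II were in part uncounted in skin Tregs. Cd4, the coreceptor, was 52.9 ± 91.4 CPM in skin Tregs and 437 ± 121 CPM in SDLN Tregs (adjusted p = 0.523), and Lag3, the inhibitory receptor that binds class II, was 114 ± 98.9 and 84.1 ± 17.8 CPM (adjusted p = 0.927). Of the genes of the cytokine MIF that signals through Cd74, Mif, Cd44 and Cxcr4 were not called (adjusted p = 0.535, 0.126 and 0.857), and Ddt was at 0 in skin Tregs and called higher in SDLN Tregs (adjusted p = 0.00322). Of 6 costimulatory ligands, 0 were called higher in skin Tregs by edgeR, DESeq2 or limma voom (0 at an unadjusted edgeR p under 0.05), and Cd80, Cd40 and Pdcd1lg2 were called higher in SDLN Tregs (adjusted p = 0.00709, 0.00603 and 0.00329), which with 45.3% of all genes called so and 1.04% called higher in skin Tregs sets the list near the background. Cd40 and Pdcd1lg2 had 0 counts in every skin library, so SDLN Tregs alone took them past the filter. With each skin library set at its floor, they were at least 1.34-fold and 62.4-fold higher in SDLN Tregs. Cd40 averaged 0.622 CPM in SDLN Tregs, below the floor of 0.800 CPM in skin Tregs A, so that library cannot show it lower. Cd86 had 0, 535 and 4372 counts in the skin libraries and was not called (adjusted p = 0.755).

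Markers of the cells known for class II were read in the same fit, and their part in the result was not tested. Of 15 macrophage and monocyte markers, 12 were tested and 11 were called higher in skin Tregs, beside 1.04% over all genes, with a summed level of 4255 to 6299 CPM in skin Tregs and 179 to 322 CPM in SDLN Tregs. Lyz2 stood at 1978, 1520 and 1057 CPM in the skin libraries and at 26.5, 53.7 and 38.4 CPM in the SDLN libraries. Cx3cr1 was not called (adjusted p = 0.417), and Fcgr1, Cd14 and Mertk were not tested. Cd14, Fcgr1 and Cx3cr1 had 0 counts in skin Tregs A and C, and Mertk had 2 counts at most in any library. Of 10 dendritic cell markers 8 were tested, and Cd209a and Clec10a were called higher in skin Tregs and Zbtb46, Xcr1 and Fscn1 higher in SDLN Tregs, beside 1.04% and 45.3% over all genes. Their sums were 1349 to 1895 and 225 to 243 CPM. Zbtb46, Xcr1 and Fscn1 were at 0 in every skin library, where 43.3% of tested genes lay at the floor, and Clec9a had 0 counts in all 6 libraries. Cd207, which marks Langerhans cells, had 0 counts in all 6 libraries.

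The 8 B cell markers summed to 0 to 2.66 CPM in skin Tregs and 69.4 to 102 CPM in SDLN Tregs, and their part was not tested either. Of the 8, 7 were at the floor in every skin library. Of the 7 tested, 6 were called higher in SDLN Tregs, Cd79b was not called (adjusted p = 0.147), and Pax5 was not tested. Over all genes tested 43.3% were at the floor in this way and 45.3% were called so. T cell markers summed to 3868 to 5486 CPM in skin Tregs and 8965 to 11141 CPM in SDLN Tregs, and the 5 Treg markers to 3209 to 5681 and 3090 to 4052 CPM. In bulk libraries a change in the share of a cell type and a change in transcripts per cell cannot be told apart.

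The genes most like the class II profile were sought among 2342 other genes that averaged 100 CPM or more, by Pearson's r with the mean log2(CPM + 1) of H2-Aa, H2-Ab1, H2-Eb1 and Cd74 over the 6 libraries. The r reflects mainly the gap between the tissues, which all these points share, and 79 genes had an r above 0.95. The 8 highest were Dusp1, Cd209e, Rab3il1, Hspa1a, Mrc1, Mgl2, Il1b and Naaa, with r from 0.996 to 0.999. Dusp1, an immediate-early phosphatase gene, stood at 7464, 3994 and 4161 CPM in the skin libraries and at 115, 102 and 114 CPM in the SDLN libraries. Mrc1, the mannose receptor of macrophages, stood at 1141, 269 and 300 CPM in the skin libraries and had 5 counts at most in an SDLN library. Both were highest in skin Tregs A, as the chain genes were.

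The members called higher in skin Tregs remained 6 in number with each replicate left out in turn. Over all genes tested, 71 of 12598 were called so without SDLN Tregs A and 324 of 15914 without skin Tregs A. The members were chosen with this difference known, so their calls under the alternatives describe the fits and are not evidence for it. In skin Tregs B, H2-Aa, H2-Ab1, H2-Eb1, Cd74, H2-DMa and H2-DMb1 each lay above every SDLN library. This library held 330 counts of Foxp3 and 1861 of Cd4, and it was also the 1 skin library with counts of Cd14 (1994), Fcgr1 (1124), Cx3cr1 (1862) and Itgax (990). H2-Aa, H2-Ab1, H2-Eb1 and H2-DMb1 were called higher in skin Tregs under all 16 alternatives with at least 2 skin libraries. Under these, all genes called so numbered from 61 of 13572 (block by column letter) to 384 of 23556 (DESeq2). Under a minimum of 10 counts per library they were 81 of 1396. Cd74 was called under 15 of them, upper-quartile scaling being the exception, and H2-DMa under 14, the exceptions being that scaling and a block by column letter. Under upper-quartile scaling the log2 fold changes were 15.12 for H2-Aa, 14.29 for H2-Ab1, 14.82 for H2-Eb1 and 14.12 for H2-DMb1. In the main fit they were 7.71, 7.32, 7.53 and 6.87. H2-Oa and H2-Ob, both at 0 counts in skin Tregs A, hardly moved, from 0.516 to 0.882 and from -13.86 to -13.82. The size of a fold change under this scaling is therefore not read, and the cause was not tested.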

How the data were processed

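The authors trimmed reads with Trimmomatic 0.36, mapped them to GRCm38 with STAR 2.5.2b and counted uniquely assigned exon reads with featureCounts (Subread 1.5.2). What was deposited is a table of raw counts, 1 row for each Ensembl gene, not normalized. The annotation release, strand setting and duplicate handling are not given in the sources used here, and no molecular identifiers are described, so floors cover counting error only. GENCODE M21 named 49056 of 49315 genes, and 24401 had 0 counts throughout. The tissue label reads skin for the lymph node samples too, so groups came from the titles.

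Genes were tested with edgeR 4.0.16 in R 4.3.3 (filterByExpr, TMM, robust quasi-likelihood test, Benjamini-Hochberg over all 13572 genes tested, threshold 0.05). Fold changes are log2 skin over SDLN. Each SE was derived as the absolute log2 fold change divided by the square root of the F statistic, not taken from the fit. The study's methods state no test for this comparison. Alternatives included DESeq2 1.42.0 and limma 3.58.1. The pipeline was tested on simulated data.

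Members, gene lists and the rule for named genes (the members, fixed lists, neighbours between the members, and the 8 genes most like the class II profile) were chosen with earlier results of these data known.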

Additional observations from a re-analysis of the deposited data

How the results depend on the processing

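The count of members higher in skin Tregs (6) was within 1.5 times under every alternative run, including each left-out replicate. The causes of the differences that follow were not tested. Genes called higher in skin Tregs, 141 in all, were 384 with DESeq2, 77 with no filter, 81 under a minimum of 10 counts per library, 1951 with skin Tregs B alone (chosen after seeing the data, with the spread taken from the SDLN libraries only) and 71 to 324 with 1 replicate left out, lowest without SDLN Tregs A and highest without skin Tregs A. Genes called higher in SDLN Tregs, 6142, were 9 under a minimum of 10 counts per library, which removes genes absent from a skin library, 3989 with all libraries drawn down to the smallest total, and 4983 to 7787 with 1 replicate left out. Members higher in SDLN Tregs (1) were 0 under a minimum of 10 counts per library, 2 with skin Tregs B alone and 1 to 2 with 1 replicate left out. Antigen processing genes higher in skin Tregs (6) were 1 with upper quartile, 2 with no filter, 3 under a minimum of 10 counts per library, 9 with skin Tregs B alone and 3 to 8 with 1 replicate left out, and those higher in SDLN Tregs (0 by edgeR) were 2 with skin Tregs B alone and 0 to 1 with 1 replicate left out. Regulators higher in skin Tregs (1) were 2 with DESeq2, 3 with skin Tregs B alone and 0 to 2 with 1 replicate left out. Regulators higher in SDLN Tregs (6) were 10 with limma voom, 0 under a minimum of 10 counts per library, 14 with skin Tregs B alone and 5 to 10 with 1 replicate left out. The median log2 fold change over all genes tested, -2.21, was -1.24 with upper quartile, -1.48 with DESeq2, -1.31 with all libraries drawn down to the smallest total, -4.68 with limma voom, -3.27 with no filter, 0.08 under a minimum of 10 counts per library, -8.05 with a block by column letter, -7.14 with skin Tregs B alone and -7.41 to -1.69 with 1 replicate left out. Summed class II levels of 40014 and 609.6 CPM became 19570 and 319.2 CPM per kilobase when divided by exon length, and the skin to SDLN ratio was 52.9 to 80.1 with 1 replicate left out. With limma voom, H2-DMb2 turned to a log2 fold change of -0.53 and H2-Oa to -5.59, without skin Tregs B to -1.28 and -12.66, and Ciita turned to -3.83 without skin Tregs C and to -3.07 with skin Tregs B alone. Cd74 (12.40) and H2-DMa (11.03) missed the threshold with upper quartile. With 1 replicate left out, log2 fold changes reached 2.73 for H2-DMb2, 0.98 for H2-Oa and 3.67 for Ciita at the most. The letters of the columns are tied to the numbered samples or to shared mice by no source used here. Same-letter deviations from the tissue means correlated at 0.0199, -0.021 and 0.0753 for A, B and C over the genes tested, and only C correlated best with its own letter in both directions. With a replicate block by letter, chosen after seeing the data, 61 genes were called higher in skin Tregs and 5633 higher in SDLN Tregs, 5 members, 2 antigen processing genes and 0 regulators were called higher in skin Tregs, and the log2 fold changes were -0.61 for H2-DMb2, -7.72 for H2-Oa and -1.76 for Ciita. Depth limits the skin libraries most, where 0 counts of H2-Ob, H2-Oa and Ciita allow up to 0.800 CPM.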
